A study of Mus musculus with 6 samples.

Results

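Astrocytes are the glial cells that take up transmitter and potassium released by neurons, supply neurons with metabolites and line the blood vessels of the brain. The 10 genes described here are the ones most often used to recognise them: Gfap, Aqp4, Slc1a2, Slc1a3, Aldh1l1, Gja1, S100b, Glul, Aldoc and Sox9. They were taken by symbol from the deposited count table, and all 10 were found among its 16729 genes and passed the filter on low counts, which left 16166 genes. Their values were compared between tumors grown in Esm1 KO and in WT hosts.

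RNA-seq was performed on tumor tissue of brains of C57BL/6 mice that had been injected with mG7080 cells, a murine GBM gliomasphere line derived from tumors of a genetic mouse model. The hosts were WT or Esm1 KO, with 3 libraries each (WT 1, WT 2, WT 3, KO 1, KO 2 and KO 3), and the methods describe female mice. Esm1 encodes Endocan, a proteoglycan secreted by vascular endothelial cells, and its deletion was carried by the host and not by the injected cells, which were the same line in both groups. Each library therefore holds RNA of tumor cells, of host cells recruited to the tumor and of any brain tissue resected with it. No source names separate litters, cages or days for the 6 tumors, so p-values measure only the spread between these libraries.

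In normal brain, Slc1a2 (GLT-1) and Slc1a3 (GLAST) remove glutamate from the synaptic cleft, and Glul (glutamine synthetase) turns it into glutamine that is returned to neurons. Aqp4 is the water channel of astrocyte endfeet, and Gja1 (connexin 43) forms the gap junctions that couple astrocytes into networks. Aldh1l1 is a folate enzyme, Aldoc a glycolytic aldolase, S100b a calcium-binding protein, Gfap the intermediate filament protein that accumulates in reactive astrocytes, and Sox9 a transcription factor of glial fate that neural stem cells also use. None of the 10 is exclusive to host astrocytes: gliomas can express Gfap, Sox9, Slc1a3, S100b and Aldoc, and oligodendrocytes can express S100b and Glul.

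Before the comparison, the libraries were checked against their labels. Esm1 itself had 1 read in KO 1, 4 in KO 3 and 24 in KO 2, against 25, 21 and 82 in WT 1, WT 2 and WT 3. The library labelled KO 2 therefore held about as many Esm1 reads as 2 of the WT libraries. The injected cells did not carry the deletion, so these few reads cannot by themselves tell whether the label is right. The part of tumor cells in them was not tested. Library totals were 17632070 to 22241832 reads on genes. KO 1 and KO 3 also stood apart in markers of dividing cells: the summed level of 12 proliferation genes was 141 and 45.2 CPM there (counts scaled to library size with TMM factors), against 1476 in KO 2 and 1336 to 2432 in WT. For these reasons each result is given over all 6 libraries, as labelled, and again without KO 2. Because KO 2 was set aside for levels near those of WT, genes that follow these levels are more likely to pass without it. Adjusted p values without KO 2 are therefore a description of the remaining libraries. Another set, WT 1, WT 2, KO 1 and KO 3, holds the 4 libraries of the study's own table. It also lacks KO 2 and lies wholly within the set without KO 2. The same limit applies to it, and a gene that passed in both sets did not pass in separate data. A gene passed when its adjusted p was under 0.05 in edgeR's quasi-likelihood test, adjusted by Benjamini-Hochberg for every gene tested.

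The 10 genes did not move as a block. Over the 6 libraries, all 3 KO libraries lay above all 3 WT libraries for 6 of them (Slc1a2, Glul, Gja1, S100b, Aldoc and Aldh1l1), where 13.2% of all genes tested did so. All 3 KO libraries lay below all WT libraries for 2 of them, Gfap and Sox9, where 14.6% of all genes did so. The groups overlapped for Aqp4 and Slc1a3. With library size alone in place of TMM, Aldh1l1 overlapped as well, at 61.8 CPM in KO 3 and 66.7 CPM in WT 3. None of the 10 passed over 6 libraries, nor did any other gene (0% of genes tested were higher and 0% lower), and the smallest adjusted p of any member was 0.184. At an unadjusted p under 0.05 in edgeR's quasi-likelihood test, 5 members were higher in KO, against 15.2% of all genes, and 2 were lower, against 11.9%. Other tools gave other counts over the same 6 libraries. DESeq2 called 3 members higher (Slc1a2, Gja1 and Glul), with 4.68% of all genes, and 1 lower (Sox9), with 2.63%. The edgeR exact test called 2 higher (Slc1a2 and Gja1), with 0.464% of all genes, and 1 lower (Sox9), with 0.285%, and limma-voom called none (0% of genes in either direction). Without KO 2, 6 members rose in KO, where 24.5% of all genes tested rose, and 2 fell, where 28.3% of all genes fell. In the 4 libraries of the study's table, 1 member rose (Gja1), against 2.87% of all genes, and 2 fell (Gfap and Sox9), against 13.9%. The median log2 fold change (KO minus WT) of the 10 members was 0.62 over 6 libraries and 0.73 without KO 2, and that of all genes tested was −0.02 in both.

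**Figure D1:**
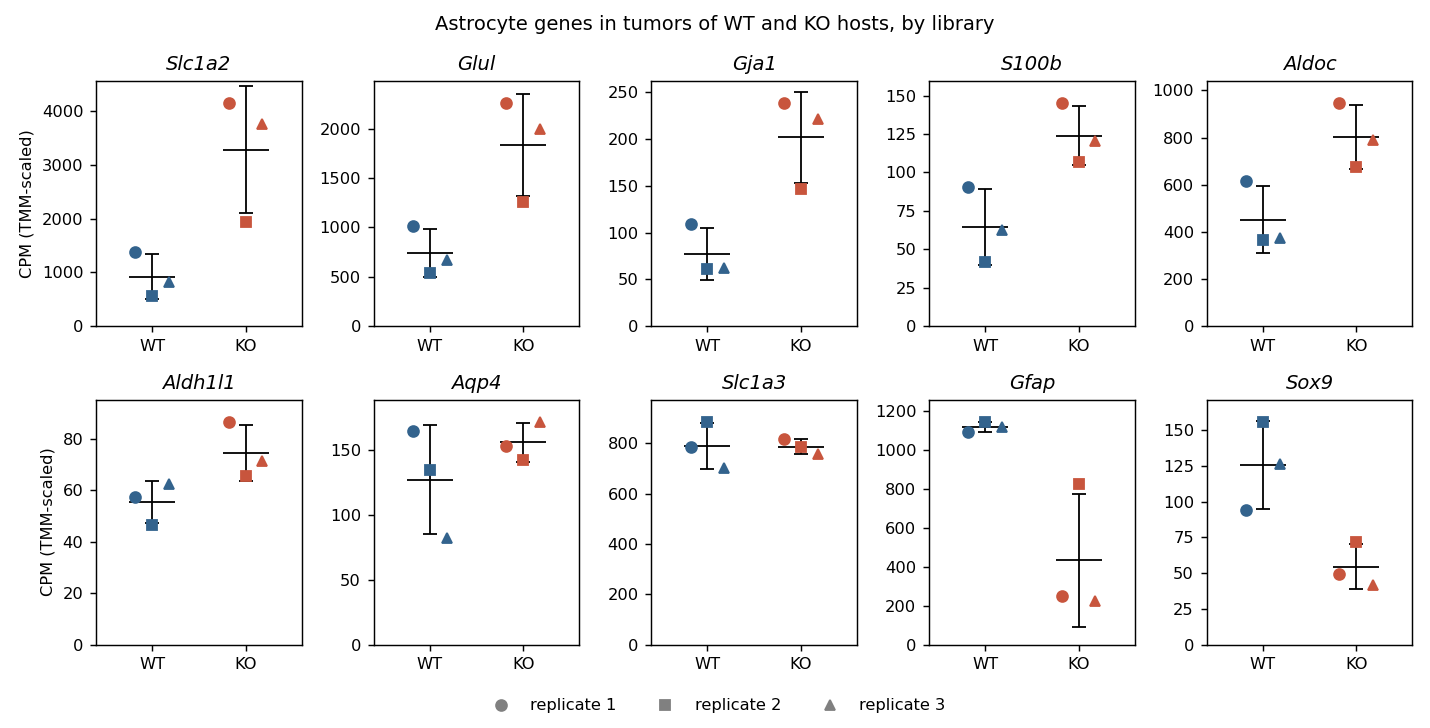
Levels of the 10 astrocyte genes in each library, as TMM-scaled CPM on linear axes that start at 0. Points are single libraries (circle, square and triangle for replicates 1, 2 and 3), the long horizontal mark is the group mean and the bars are 1 SD (n = 3). The 6 genes from Slc1a2 to Aldh1l1 were higher in every KO library than in every WT library, Gfap and Sox9 were lower in every one, and Aqp4 and Slc1a3 overlapped.

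The promoters of 4 members are shown because these genes took different courses: Gfap was lower in KO, Glul and Gja1 were higher, and Slc1a3 was level. The sequences are RefSeq's, on GRCm38.p6, from 250 bases before to 50 bases after the annotated start, and are written 5′ to 3′ on the gene's own strand. Capitals mark matches on either strand to 5 short motifs: the palindromic STAT motif TTCNNNGAA, the NFI motif TTGGCA, the SOX motif ACAAAG, the TATA box TATAAA and the CRE motif TGACG. No match overlapped another.
Gfap, chr11:102897151-102897450, minus strand: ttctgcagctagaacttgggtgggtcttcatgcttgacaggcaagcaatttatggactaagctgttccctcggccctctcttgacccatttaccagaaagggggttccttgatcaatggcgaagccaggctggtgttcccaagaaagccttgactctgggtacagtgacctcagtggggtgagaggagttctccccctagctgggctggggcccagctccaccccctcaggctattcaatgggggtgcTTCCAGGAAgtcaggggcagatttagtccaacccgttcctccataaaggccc
Slc1a3, chr15:8710758-8711057, minus strand: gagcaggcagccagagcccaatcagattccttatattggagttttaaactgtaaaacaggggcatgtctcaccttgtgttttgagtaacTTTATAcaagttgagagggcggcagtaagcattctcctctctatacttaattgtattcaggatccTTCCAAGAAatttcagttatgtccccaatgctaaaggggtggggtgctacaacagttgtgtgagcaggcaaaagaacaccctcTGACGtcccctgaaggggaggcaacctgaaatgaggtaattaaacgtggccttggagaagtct
Glul, chr1:153899679-153899978, plus strand: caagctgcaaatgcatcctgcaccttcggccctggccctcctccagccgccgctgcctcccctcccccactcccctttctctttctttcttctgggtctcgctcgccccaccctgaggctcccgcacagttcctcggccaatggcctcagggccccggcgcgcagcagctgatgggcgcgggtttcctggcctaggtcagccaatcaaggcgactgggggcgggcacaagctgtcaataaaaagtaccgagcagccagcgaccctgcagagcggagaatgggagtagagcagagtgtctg
Gja1, chr10:56377050-56377349, plus strand: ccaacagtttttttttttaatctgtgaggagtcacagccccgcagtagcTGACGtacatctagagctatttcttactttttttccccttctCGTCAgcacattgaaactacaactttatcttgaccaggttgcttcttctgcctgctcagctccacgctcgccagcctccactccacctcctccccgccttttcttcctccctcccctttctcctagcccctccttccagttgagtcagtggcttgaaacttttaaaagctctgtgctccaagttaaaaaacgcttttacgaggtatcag
The Gfap window holds 1 STAT motif, TTCCAGGAA, that begins 2 bases before the RefSeq start. The Slc1a3 window has TTCCAAGAA at 96 bases before it, a CRE motif at 13 bases before it and a reverse-strand TATA box. Gja1 holds the CRE motif on both strands, and Glul holds none of the 5 motifs. The RefSeq starts of Glul, Gja1 and Slc1a3 lie 15, 30 and 43 bases outside the gene's first base in GENCODE vM21, and that of Gfap lies 3712 bases inside the longest GENCODE model. RefSeq promoters of 8 of the 10 members were searched. Aqp4 was left out of the search, and Sox9 had no entry in the promoter set used. A member counted if any of its promoters held the motif, whereas the shares of all promoters are per promoter. The STAT motif was in 3 of the 8 members searched (Gfap, Slc1a3 and Aldoc) and in 8.30% of all 32851 promoters, the NFI motif in 2 of 8 (S100b and Aldoc) and in 14.1%, and the CRE motif in 2 of 8 (Gja1 and Slc1a3) and in 20.8%. Aldoc has alternative promoters in the set. Its STAT matches were only in the one that starts 1230 bases inside the GENCODE gene, and its NFI match was only in the other. The TATA box was in 1 of 8 and in 13.6% of all promoters, and the SOX motif was in 0 of 8 and in 18.7%. A match is a string of letters and not a binding site, and the genes with a STAT motif included one that was lower, one that was higher and one that was level.

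The genes of glutamate uptake and recycling took different courses. Slc1a2, the main glutamate transporter of mature forebrain astrocytes (chr2:102658659-102790784, plus strand, GRCm38), stood at 4143 CPM in KO 1, 1937 in KO 2 and 3755 in KO 3, against 1376 in WT 1, 552 in WT 2 and 814 in WT 3. Every KO library was above every WT library, and KO 2 lay between the other KO libraries and WT. The KO mean of 3279 ± 1178 CPM (SD, n = 3) was 3.59 times the WT mean of 914 ± 421 CPM, and KO 1 and KO 3 alone averaged 4.32 times it. The log2 fold change over 6 libraries was 1.83 (SE 0.49, unadjusted p = 0.00912, edgeR's quasi-likelihood adjusted p = 0.184). Without KO 2, Slc1a2 rose by 2.11 on the log2 scale (SE 0.43, edgeR adjusted p = 0.0144), and in the 4 libraries of the study's table its log2 fold change of 2.03 (SE 0.64) had an edgeR adjusted p of 0.0746.

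Glul (chr1:153899944-153909723, plus strand), which makes the glutamine that astrocytes hand back to neurons, followed the same order of libraries. Its levels were 2261 CPM in KO 1, 1259 in KO 2 and 1998 in KO 3, and 1017, 541 and 669 in WT 1, WT 2 and WT 3. The lowest KO library was above the highest WT library by less than the distance between KO 2 and KO 3. The KO mean was 1839 ± 519 CPM and the WT mean 742 ± 246 CPM (SD, n = 3 each), a ratio of 2.48. The log2 fold change was 1.30 (SE 0.37, edgeR adjusted p = 0.184) over 6 libraries, and without KO 2 Glul rose by 1.52 (SE 0.33, edgeR adjusted p = 0.0164).

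Slc1a3, the transporter that radial glia and immature astrocytes also use (chr15:8634124-8710764, minus strand), was level. It stood at 819, 786 and 756 CPM in KO 1, KO 2 and KO 3, compared with 785, 886 and 701 CPM in WT 1, WT 2 and WT 3. In TMM-scaled CPM the KO values lay wholly inside the WT range. With library size alone, Slc1a3 was lower in KO 1 (746 CPM) and KO 3 (653 CPM) than in WT 3 (750 CPM), the lowest WT library. Its log2 fold change was −0.02 (SE 0.20, edgeR adjusted p = 0.932) over 6 libraries and −0.00122 (SE 0.21) without KO 2. The order of the 2 transporters differed between libraries. Per length, in the authors' FPKM, Slc1a2 was 0.638, 0.227 and 0.422 times Slc1a3 in WT 1, WT 2 and WT 3, and 1.84, 0.896 and 1.805 times it in KO 1, KO 2 and KO 3. Slc1a2 was below Slc1a3 in all WT libraries and in KO 2, and above it in KO 1 and KO 3.

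Among the membrane channels, Gja1 (chr10:56377330-56402513, plus strand) had the smallest unadjusted p of the 10 genes over 6 libraries. Its levels were 238 CPM in KO 1, 146 in KO 2 and 221 in KO 3, and 109, 60.8 and 61.9 CPM in WT 1, WT 2 and WT 3. All KO libraries were higher than all WT libraries, and the KO mean of 202 ± 48.9 CPM was 2.61 times the WT mean of 77.3 ± 27.7 CPM (SD, n = 3 each). The log2 fold change over 6 libraries was 1.37 (SE 0.31, unadjusted p = 0.00418, edgeR adjusted p = 0.184). Gja1 rose by 1.57 (SE 0.29, edgeR adjusted p = 0.0115) without KO 2 and by 1.42 (SE 0.33, edgeR adjusted p = 0.0476) in the 4 libraries of the study's table, and it was the only higher member that passed in both sets.

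Aqp4, the other channel, had levels of 153, 143 and 172 CPM in KO 1, KO 2 and KO 3, compared with 165, 134 and 81.8 CPM in WT 1, WT 2 and WT 3. WT 3 was the only library far from the others, and the remaining 5 lay between 134 and 172 CPM. The log2 fold change was 0.28 (SE 0.27, edgeR adjusted p = 0.447) over 6 libraries and 0.36 (SE 0.30, edgeR adjusted p = 0.336) without KO 2. Relative to Gja1, in FPKM, Aqp4 was at 0.392 to 0.595 in KO and 0.808 to 1.35 in WT, and these ratios did not overlap.

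The metabolic enzymes were higher in KO by smaller amounts. Aldoc (chr11:78322968-78327781, plus strand), the brain aldolase of glycolysis, stood at 945, 674 and 788 CPM in KO 1, KO 2 and KO 3, compared with 615, 366 and 373 CPM in WT 1, WT 2 and WT 3. The gap between KO 2 and WT 1 was narrow beside the gap between WT 1 and the other WT libraries. The KO mean was 1.78 times the WT mean, with a log2 fold change of 0.82 (SE 0.29, edgeR adjusted p = 0.184) over 6 libraries, and without KO 2 Aldoc rose by 0.95 (SE 0.30, edgeR adjusted p = 0.0403). Aldh1l1 (chr6:90486427-90600203, plus strand), the folate enzyme used to label astrocytes throughout the brain, had the smallest difference of the 6 higher genes. Its levels were 86.6, 65.4 and 71.6 CPM in KO 1, KO 2 and KO 3, compared with 57.3, 46.4 and 62.4 CPM in WT 1, WT 2 and WT 3. KO 2 exceeded WT 3 by less than the SD of either group (10.9 CPM in KO and 8.16 CPM in WT). With library size alone, Aldh1l1 overlapped between the groups, at 61.8 CPM in KO 3 and 66.7 CPM in WT 3. Its log2 fold change was 0.41 (SE 0.17, unadjusted p = 0.0515), and it was 0.52 (SE 0.17, edgeR adjusted p = 0.0479) without KO 2, just under the threshold, and 0.48 (edgeR adjusted p = 0.0553) with upper quartile scaling in place of TMM.

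The calcium-binding marker S100b (chr10:76253853-76261159, plus strand) was higher in every KO library. It stood at 145, 107 and 120 CPM in KO 1, KO 2 and KO 3, compared with 90.4, 41.3 and 62.2 CPM in WT 1, WT 2 and WT 3. The groups did not overlap, and the KO mean was 1.92 times the WT mean. Its log2 fold change was 0.93 (SE 0.29, edgeR adjusted p = 0.184) over 6 libraries, and without KO 2 it rose by 1.04 (SE 0.32, edgeR adjusted p = 0.0386).

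Gfap, the filament protein most used to stain astrocytes (chr11:102887336-102900912, minus strand), went the other way. Its WT levels were close in TMM-scaled CPM, at 1092, 1143 and 1116 in WT 1, WT 2 and WT 3, with a coefficient of variation of 2.27%. With library size alone they were 1121, 1254 and 1194 CPM, and the SD was 66.8 CPM in place of 25.3 CPM. In TMM-scaled CPM the KO libraries stood at 247 in KO 1, 224 in KO 3 and 823 in KO 2. KO 1 and KO 3 were close to each other and far below WT, and KO 2 lay nearer to WT than to either of them, so the KO coefficient of variation was 78.6%. The WT mean was 2.59 times the KO mean and 4.74 times the mean of KO 1 and KO 3. Over 6 libraries the log2 fold change was −1.39 (SE 0.55, unadjusted p = 0.0429, edgeR adjusted p = 0.184). Without KO 2, Gfap fell by 2.24 (SE 0.21, edgeR adjusted p = 0.00798), and in the 4 libraries of the study's table it fell by 2.26 (SE 0.32, edgeR adjusted p = 0.0343). It was the only member that passed with a fold change above 4 in both of these sets, and Slc1a2 did so without KO 2 but not in the 4 libraries.

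Sox9, the one transcription factor of the 10 (chr11:112782224-112787760, plus strand), was also lower in KO. Its levels were 49.3, 72.0 and 41.8 CPM in KO 1, KO 2 and KO 3, compared with 94.4, 156 and 126 CPM in WT 1, WT 2 and WT 3. The groups did not overlap, and the WT mean was 2.31 times the KO mean. The log2 fold change was −1.23 (SE 0.28, unadjusted p = 0.00473, edgeR adjusted p = 0.184). Sox9 fell by 1.46 (SE 0.24, edgeR adjusted p = 0.0101) without KO 2 and by 1.47 (SE 0.30, edgeR adjusted p = 0.0406) in the 4 libraries.

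**Figure D2:**
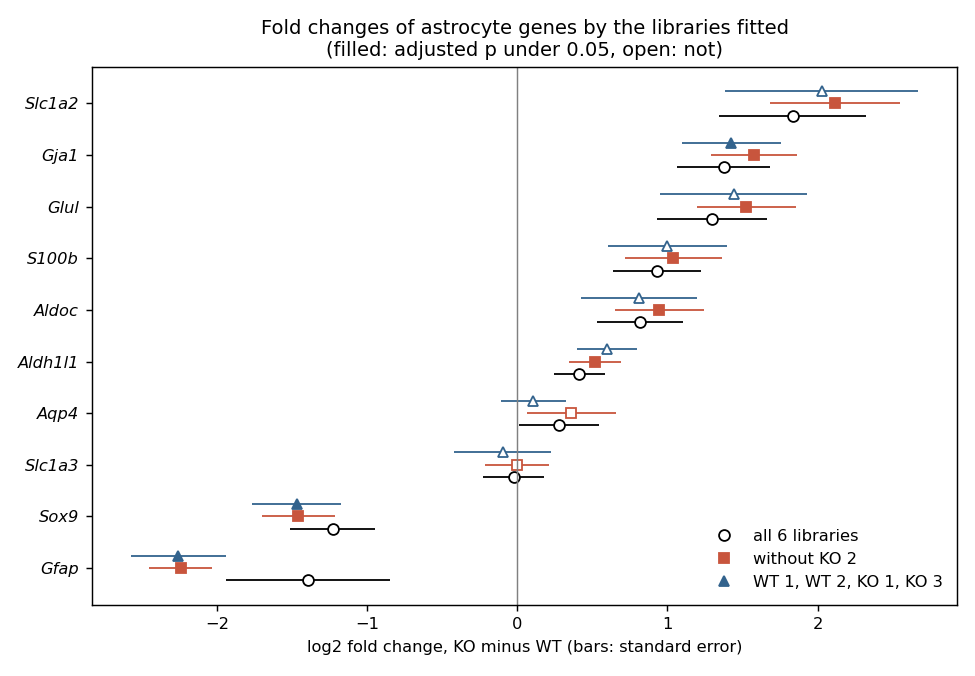
Log2 fold change of each gene, KO minus WT, with its standard error, fitted over all 6 libraries (circles), without KO 2 (squares) and over WT 1, WT 2, KO 1 and KO 3 (triangles). Filled symbols have an adjusted p under 0.05. Gfap is the gene whose value depends most on KO 2, at −1.39 with it and −2.24 without it. Slc1a3 lies near 0 in all 3 sets. Aqp4 lies at 0.28, 0.36 and 0.11 over the 6 libraries, without KO 2 and over the 4 libraries, and passed in none.

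KO 2 took an intermediate place in most of these genes: it lay between the WT mean and the mean of KO 1 and KO 3 for 9 of the 10. In TMM-scaled CPM it was the lowest KO library in all 6 of the higher genes, and WT 1 was the highest WT library in 5 of those 6. KO 2 was 2.12 times the WT mean for Slc1a2, 1.89 times for Gja1 and 1.70 times for Glul. The WT mean was 1.36 times KO 2 for Gfap and 1.74 times KO 2 for Sox9.

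Levels of different genes can be compared only per length, for which the authors' FPKM were used. In WT, Gfap had the highest mean, 438 ± 24.6 FPKM (SD, n = 3), and was above every value of Aldoc, the next gene. Aldoc (280 ± 78.6), Glul (279 ± 82.9) and Slc1a3 (200 ± 27.5 FPKM) followed, with overlapping ranges between neighbours. Slc1a2 (83.2 ± 35.5 FPKM) came below Slc1a3 with no overlap. S100b (41.1), Sox9 (32.4), Aqp4 (26.5), Gja1 (26.3) and Aldh1l1 (19.1 FPKM) came last, and each of them overlapped its neighbours.

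In KO the order was led by Glul at 607 ± 130 FPKM and Aldoc at 441 ± 56.9 FPKM, which overlapped. Slc1a2 (261 ± 76.6 FPKM) came next, below every value of Aldoc and overlapping Slc1a3 (177 ± 21.0 FPKM). Gfap took the fifth place at 158 ± 140 FPKM, made up of 82.9 in KO 1, 71.2 in KO 3 and 320 in KO 2. Its range overlapped those of Slc1a3 above it and S100b below it. S100b (69.9) and Gja1 (60.4) were next and overlapped. Aqp4 (28.7), Aldh1l1 (22.7) and Sox9 (12.6 FPKM) followed, each apart from its neighbour. Gfap made up 25.2% to 34.8% of the summed FPKM of the 10 genes in WT, 18.03% in KO 2, and 4.07% and 4.18% in KO 1 and KO 3. Glul made up 15.9% to 22.7% in WT and 26.7% to 36.1% in KO. Slc1a2 was 0.113 to 0.296 times Gfap in WT, 0.553 times in KO 2 and 3.93 and 3.94 times in KO 1 and KO 3.

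**Figure D3:**
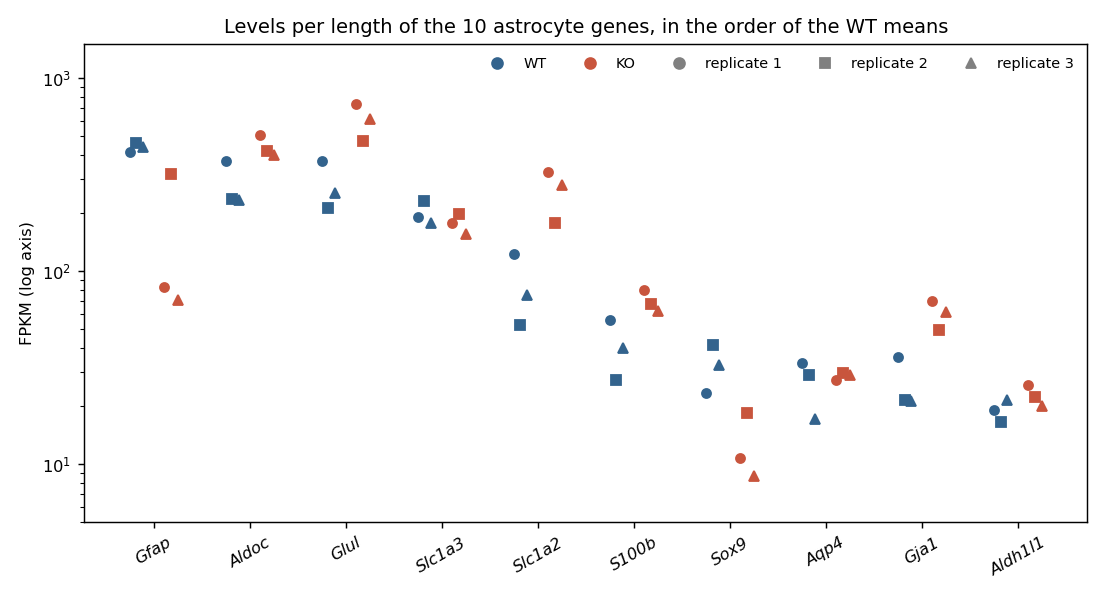
The authors' FPKM of the 10 genes in every library, on a log axis, with genes ordered by their WT mean. WT libraries are blue, KO libraries red, and the shapes give the replicate. Gfap led in WT at 438 FPKM and Glul in KO at 607 FPKM. KO 1 and KO 3 lay below the other libraries for Gfap and Sox9.

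A further 5 lists of astrocyte genes, 40 genes in all, were read in the same fits. In the 6 libraries 15 of the 40 had all KO libraries above all WT and 2 had them below, against 13.2% and 14.6% of all genes. Without KO 2, 20 of the 40 rose, 1 fell and 19 did not pass, against the shares of all genes given above. In the study's 4 libraries, 0 of the 40 rose and 1 fell, against 2.87% and 13.9% of all genes. The median log2 fold change of the 40 was 0.58 over 6 libraries, 0.67 without KO 2 and 0.54 in the 4 libraries. Of 7 genes of potassium and ion transport, 5 rose without KO 2. They ranged from the potassium channel Kcnj10 (log2 fold change 0.01, SE 0.18, over 6 libraries) to the bicarbonate cotransporter Slc4a4 (1.28, SE 0.36). Of 8 genes of transmitter and amino acid handling, 4 rose, and the lowest of the list was Cbs (−0.43, SE 0.23). Of 7 genes of gap junctions, adhesion and surface receptors, 3 rose, from Ezr (−0.24, SE 0.15) to the neurotensin receptor Ntsr2 (1.26, SE 0.35).

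Among 10 genes of lipid and energy metabolism, 5 rose and none fell without KO 2, where 24.5% of all genes rose and 28.3% fell. The range was from the acyl-CoA synthetase Acsbg1 (−0.51, SE 0.19), whose KO libraries were all below WT, to the thyroid hormone deiodinase Dio2 (1.33, SE 0.51). Among 8 genes of secreted proteins, 3 rose and 1 fell. The one that fell was Agt (angiotensinogen), at 8.90, 36.3 and 4.53 CPM in KO 1, KO 2 and KO 3, compared with 79.7, 41.0 and 45.4 CPM in WT 1, WT 2 and WT 3. It fell by 3.04 (SE 0.45, edgeR adjusted p = 0.00846) without KO 2, and the highest of its list was Cpe (1.04, SE 0.39, over 6 libraries). In a list of 9 lineage transcription factors, 4 rose and 1 fell without KO 2, against the same shares. Over 6 libraries 2 of the 9 had all KO libraries above all WT and 1 had them below, against 13.2% and 14.6% of all genes. The lowest was Id3 (−0.90, SE 0.29), an inhibitor of bHLH factors, and the highest was Rorb (1.66, SE 0.50), a nuclear receptor also expressed by cortical neurons.

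Genes of reactive astrocytes were, summed, lower in KO 1 and KO 3 than in WT, as Gfap was. In KO 2 Gfap was below all WT libraries, whereas the summed level of these genes was within the WT range. Of 20 such genes, none was higher in KO by any rule used, 5 had all KO libraries below all WT (14.6% of all genes did), and the median log2 fold change was −1.07 over 6 libraries. Without KO 2, 16 of the 20 fell, where 28.3% of all genes did, none rose and the median was −2.02. Vim, the filament protein that assembles with Gfap, stood at 64.1, 360 and 43.8 CPM in KO 1, KO 2 and KO 3, compared with 478, 957 and 706 CPM in WT 1, WT 2 and WT 3. Cd109 had the lowest value of the list (log2 fold change −2.62, SE 0.64, over 6 libraries) and Hspb1 the highest (−0.18, SE 0.31). Several of these genes are not particular to astrocytes: Vim and Cd44 are also made by glioma cells, and C3, Gbp2 and Cxcl10 by microglia and other cells under interferon or complement activation. Summed over the list, the level was 235 CPM in KO 1, 179 in KO 3, 1346 in KO 2 and 1251 to 2069 in WT.

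**Figure D4:**
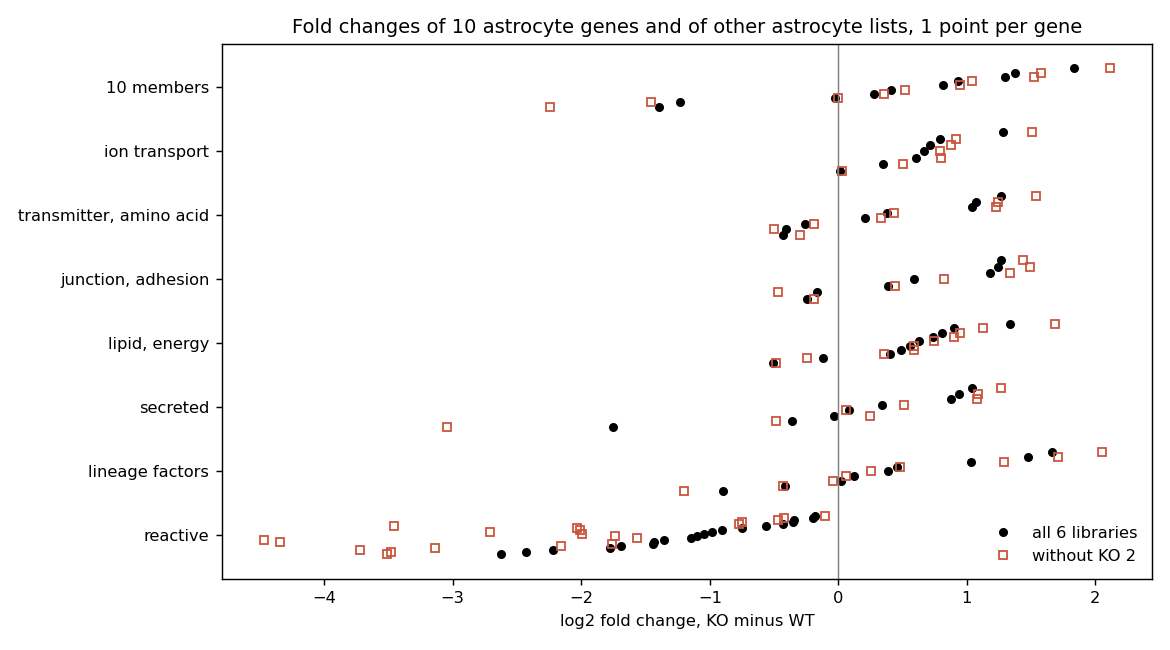
Log2 fold changes (KO minus WT) of the 10 astrocyte genes, of 5 further astrocyte lists, of lineage transcription factors and of reactive astrocyte genes, with 1 point per gene, over all 6 libraries (filled circles) and without KO 2 (open squares). The median of the reactive list was −1.07 over 6 libraries, and that of the 40 genes in the 5 further lists was 0.58.

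Markers of other cell types were read in the same libraries. In bulk tissue, fewer cells of a type and less RNA per cell cannot be told apart, and the same holds for more. The 16 neuron genes had a median log2 fold change of 1.53 over 6 libraries, and 15 rose without KO 2, against 24.5% of all genes. In the study's 4 libraries, 0 of the 16 rose, against 2.87% of all genes. Among these 16 neuron genes, 1 had all KO libraries above all WT over 6 libraries, where 13.2% of all genes did. Their summed level was 16747 CPM in KO 1, 20009 in KO 3 and 6306 in KO 2, against 7441, 2403 and 4454 in WT 1, WT 2 and WT 3, so that WT 1 was above KO 2. The neuron list ran from Gad2 (log2 fold change 0.78, SE 0.50) to Slc17a7 (1.98, SE 0.70). The 10 genes of myelinating oligodendrocytes had a median of 1.05 over 6 libraries. Without KO 2, 2 of the 10 rose, where 24.5% of all genes did. The summed level of the list was 3271 to 7628 CPM in KO and 1351 to 3426 CPM in WT. The lowest of the list was Cnp (0.33, SE 0.28). The summed level of the 10 astrocyte genes was 9088, 6012 and 8147 CPM in KO 1, KO 2 and KO 3, compared with 5402, 3926 and 4068 CPM in WT 1, WT 2 and WT 3. The part of neuronal and oligodendrocyte RNA in the higher astrocyte genes was not tested.

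Set against the neuron list, the astrocyte genes parted again. Slc1a2 was 0.247, 0.307 and 0.188 of the summed neuron level in KO 1, KO 2 and KO 3, compared with 0.185, 0.230 and 0.183 of it in WT 1, WT 2 and WT 3, and these ratios overlapped. Gfap was 0.0148, 0.130 and 0.0112 of the neuron level in KO 1, KO 2 and KO 3, compared with 0.147 to 0.476 of it in WT. The sum of the 10 astrocyte genes was 0.407 to 0.953 of the neuron level in KO and 0.726 to 1.63 in WT, with overlap. Against the oligodendrocyte list, Slc1a2 was 0.543 to 0.955 in KO and 0.402 to 0.423 in WT, without overlap.

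Lists of tumor and immune cells were lower in KO 1 and KO 3, as Gfap and Sox9 were. In KO 2 they parted: Gfap and Sox9 were below all WT libraries, and the summed precursor and proneural list was above them. The microglia and macrophage list was also above all WT libraries there, at 1340 CPM against 947 to 1011 CPM in WT. The stem cell and proliferation lists were within the WT range in KO 2. Of 8 genes of oligodendrocyte precursors and proneural tumors, 7 fell without KO 2 (28.3% of all genes did), with a summed level of 555 CPM in KO 1, 348 in KO 3, 2340 in KO 2 and 1627 to 1902 in WT. The lowest was Dll3 (log2 fold change −2.20, SE 1.08, over 6 libraries) and the highest Sox10 (0.42, SE 0.35). Of 8 neural stem cell genes, 5 fell and 1 rose without KO 2, where 28.3% of all genes fell and 24.5% rose. Over 6 libraries their log2 fold changes ran from Sox3 (−2.73, SE 1.11) to Sox1 (1.28, SE 0.41). None of the 12 proliferation genes passed over 6 libraries, with a median of −1.87. Their level was part of the reason to set KO 2 aside, so their median of −4.56 without it is a description only. Over 6 libraries they ran from Aurkb (−2.16, SE 1.29) to Kif20a (−1.20, SE 0.53). Of 10 genes of microglia and macrophages, 7 fell and 1 rose without KO 2, against the same shares of all genes. Over 6 libraries 1 of the 10 had all KO libraries above all WT and 1 below, against 13.2% and 14.6% of all genes. Their log2 fold changes over 6 libraries ran from the phagocytic marker Cd68 (−1.17, SE 0.46) to P2ry12 (0.94, SE 0.34), a receptor of homeostatic microglia. Gfap relative to the microglia and macrophage list was 0.435, 0.614 and 0.429 in KO 1, KO 2 and KO 3, compared with 1.11 to 1.18 in WT. The part of these cells in the lower level of Gfap and Sox9 was not tested.

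Of 8 endothelial genes, 3 rose and none fell without KO 2, where 24.5% of all genes rose and 28.3% fell. Their median was −0.09 over 6 libraries, with extremes at Kdr (−0.51, SE 0.35) and Flt1 (0.65, SE 0.25). Of 6 ependymal and choroid plexus genes 5 were tested and none passed without KO 2. Their summed level was 387 CPM in WT 1 and 19.6 to 38.7 CPM in the other 5 libraries, mostly from Ttr (354 CPM in WT 1, log2 fold change −5.40, SE 2.38, over 6 libraries), and Ccdc153 was highest (0.14, SE 0.95). Of the red blood cell list Alas2 was tested (−0.58, SE 0.68), and the globin genes were not analysed here.

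**Figure D5:**
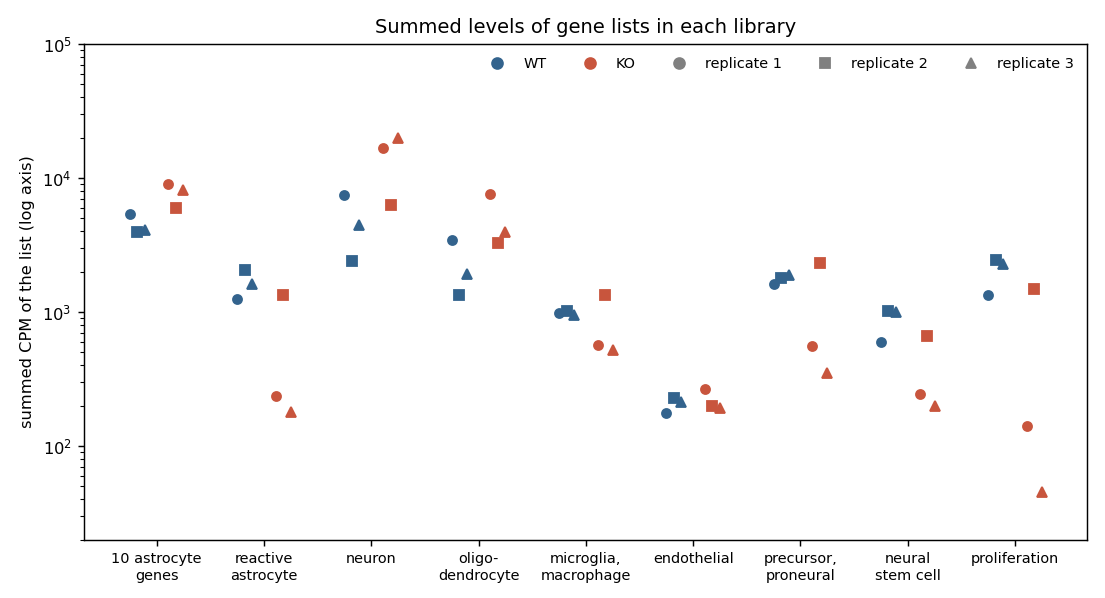
Summed TMM-scaled CPM of the 10 astrocyte genes and of marker lists in each library, on a log axis, with WT libraries in blue, KO libraries in red and shapes for the replicate. The 10 astrocyte genes sum to 6012 to 9088 CPM in KO and 3926 to 5402 CPM in WT. KO 1 and KO 3 were far below the other libraries for reactive, precursor, stem cell and proliferation genes and above them for neuron genes.

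The genes outside all lists that followed the mean of the 10 members most closely over the 6 libraries, taken as log2 CPM centred on each gene's mean, were Sdc4 (r = 0.996), Klhdc7a (0.992), Bsg (0.990), Mertk (0.989) and Fam107a (0.989). These correlations only describe 6 points that share their libraries and scaling. That mean was highest in KO 1 and lowest in WT 2, and the WT 1 value lay closer to KO 2 than to WT 2. Sdc4, a syndecan, stood at 66.4, 51.7 and 57.0 CPM in KO 1, KO 2 and KO 3, compared with 47.8, 30.4 and 32.4 CPM in WT 1, WT 2 and WT 3. Mertk, a receptor for phagocytosis in astrocytes and macrophages, stood at 61.9, 44.1 and 50.7 CPM in KO and 40.2, 25.0 and 27.2 CPM in WT. Sdc4 and Mertk did not overlap between the groups, and had edgeR adjusted p values of 0.184 over 6 libraries. The members' mean was itself higher in every KO library than in every WT library. Genes chosen to follow that mean were therefore likely to part the groups too, so these values are a description only. Several members share their place in the genome with other genes, and no source used here states whether reads were counted by strand: Gfap lies within the noncoding Gm26668 and S100b and Glul overlap the ends of Dip2a and Teddm2, all on the opposite strand. Noncoding genes on the opposite strand also overlap Slc1a2, Aldh1l1 and Aqp4. On the same strand, where counting by strand would not separate them, Slc1a3 overlaps Gm37310, Aldh1l1 overlaps Gm45901 and Gm44236, and Glul overlaps Mir8114.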

How the data were processed

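RNA-seq libraries from 6 tumors (3 WT, 3 KO hosts, grouped by the sample labels) were analysed. The deposited counts are whole numbers that the authors obtained per gene with HTSeq, by the methods. STAR is named in the reporting summary. The labels name mm10, CASAVA 1.8.2 and the NEBNext Ultra kit, whereas the methods name hg38 and the Ovation Ultralow kit. The deposited FPKM were computed by the authors per gene length and library total. The authors' fold changes, p-values, false discovery rates and normalized counts in the same table were not used.

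Counts were compared with edgeR 4.0.16 in R 4.3.3 (filterByExpr, minimum count 10 and minimum total 15, TMM factors, quasi-likelihood F test, Benjamini-Hochberg adjustment over every tested gene, adjusted p under 0.05). Fold changes are KO minus WT on the log2 scale, and a standard error is the size of the log2 fold change over the square root of F. Results were recomputed with upper quartile and RLE scaling, without a filter or with a mean of 10 counts, each library left out, the 4 libraries of the study's table, the replicate number as a block, DESeq2 1.42.0, edgeR's exact test and limma-voom (limma 3.58.1). The other tools and scalings without KO 2, and KO 2 left out together with each other library, were added after seeing the data. The scripts were tested on simulated data.

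The members, lists and tests were chosen with earlier results of these data known. Named genes are the 10 members, Esm1, the genes with the lowest and highest log2 fold change over 6 libraries of each other list, and the 5 genes outside all lists, with a mean of at least 10 CPM, that correlated best with the members' mean. Vim, and the values of Mertk and Sdc4 alone among those 5, were chosen after they were seen. The highest gene of 2 lists is not reported here. Plpp3 is listed under its older symbol Ppap2b. Positions are from GENCODE vM21. The replicate numbers of the labels were not used as pairs.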

Additional observations from a re-analysis of the deposited data

How the results depend on the processing

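Over all 6 libraries the 10 members kept their direction under every alternative except Slc1a3, whose values near 0 changed sign (0.0144 with RLE scaling and with DESeq2, and −0.0839 to 0.0755 with each library left out). The scalings, the filters and limma-voom moved no call. DESeq2 called 757 genes higher and 425 lower in KO, with 3 and 1 members, and the exact test 75 and 46, with 2 and 1 members. Log2 fold changes that passed were those of Slc1a2 (1.87 with DESeq2, 1.83 with the exact test), Gja1 (1.41 and 1.37), Sox9 (−1.19 and −1.23) and Glul (1.34, DESeq2 alone). In the 4 libraries of the study's table, 464 genes and 1 member were higher and 2244 genes and 2 members lower, 1 of them past a fold of 4. Gfap (−2.26), Gja1 (1.42) and Sox9 (−1.47) passed there.

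With 1 library left out, calls appeared only without KO 2: 0 to 3986 genes higher and 0 to 4608 lower, 0 to 6 members higher and 0 to 2 lower, and 0 to 1 past a fold of 4 in each direction. The log2 fold changes then spanned −2.24 to −1.08 for Gfap, 1.58 to 2.23 for Slc1a2, 1.23 to 1.69 for Gja1, 1.12 to 1.58 for Glul, 0.69 to 1.23 for S100b, 0.68 to 1.09 for Aldoc, 0.29 to 0.52 for Aldh1l1 and −1.46 to −1.03 for Sox9. The cause was not tested.

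Without KO 2, the other tools and scalings kept the calls of Gfap, Slc1a2, Gja1, Glul, S100b, Aldoc and Sox9, and Aldh1l1 lost its call with upper quartile scaling (0.48, adjusted p = 0.0553). Slc1a3 was 0.0255 with DESeq2 and with RLE scaling and 0.00417 with limma-voom. Leaving out a further library gave 0 to 5195 genes higher and 0 to 5532 lower, 0 to 6 members higher and 0 to 2 lower, and 0 to 1 past a fold of 4 in each direction. Without KO 3 as well no member passed. Without KO 1 as well the log2 fold change of Gfap was −2.31 and that of Slc1a2 2.04. Without WT 3 as well Gfap, Gja1 and Sox9 passed, where 464 of all 16183 genes tested were higher and 2244 lower. Without WT 2 as well 4 higher and 2 lower members passed, with Aldoc and Aldh1l1 lost. There 2461 of all 16185 genes tested were higher and 3473 lower. With KO 1 or KO 3 left out, the lone KO library is assumed to vary as the WT libraries do. The log2 fold changes spanned −2.31 to −2.17 for Gfap, 1.85 to 2.52 for Slc1a2, 1.42 to 1.90 for Gja1, 1.34 to 1.81 for Glul, 0.80 to 1.35 for S100b, 0.81 to 1.22 for Aldoc, 0.38 to 0.65 for Aldh1l1, −1.64 to −1.28 for Sox9 and −0.0959 to 0.0823 for Slc1a3.

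With the replicate number as a block over 6 libraries, 0 genes passed in either direction, and the log2 fold change of Gfap was −1.68 (edgeR adjusted p = 0.0734) and that of Slc1a2 1.85 (edgeR adjusted p = 0.065). Deviations from the group means correlated at 0.619, 0.654 and −0.263 between same-numbered libraries over 15303 genes, so the numbers were not taken as pairs, and not every library correlated best with its own number. With library size alone in place of TMM the WT mean of Gfap was 1190 CPM and the KO mean of Slc1a3 743 CPM, each moved by more than 1 SD. Aldh1l1 then overlapped between the groups, and Slc1a3 was lower in KO 1 and KO 3 than in every WT library. The lowest count of any member in any library was 800, so that replicate spread and not counting limits these values.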
